A study of Mus musculus with 8 samples.

Results

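The ALG enzymes build the lipid-linked oligosaccharide, the sugar tree on dolichol that is transferred to asparagines of new proteins in the endoplasmic reticulum (ER). They were taken as 10 listed genes, namely Dpagt1, Alg1, Alg2, Alg3, Alg5, Alg6, Alg8, Alg9, Alg11 and Alg12. A gene was measured if an array feature carried its symbol and no other, which held for 9 of the 10, among 18820 genes measured in all. Each of the 9 had 1 such feature. Both features of Alg1 also carry the symbol Eef2kmt, so Alg1 is given no value.

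The data are 8 whole-transcript arrays of mouse pancreas, 4 labelled as inducible Sel1L knockout and 4 as wild type, each array read from 100 ng of RNA. Sel1L is the adaptor of the Hrd1 ubiquitin ligase, which removes misfolded proteins from the ER. In both groups exon 6 of Sel1l was flanked by loxP sites on both alleles (Sel1L flox/flox), and both received tamoxifen in sunflower oil (5 mg/ml, 5 μl per g) for 3 days. The knockout mice also carried a Cre recombinase fused to the estrogen receptor (ERCre), driven by an actin promoter and so not limited to pancreas. The mice labelled wild type were floxed littermates without ERCre, so loss of Sel1L and active Cre cannot be told apart. Embryonic stem cells of C57BL/6N origin were crossed onto C57BL/6J lines, among them an FLPe deleter, and mice were 8 to 20 weeks old when injected. The labels do not say that each sample is a separate animal, so the p-values rest on a spread that may be technical.

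Assembly starts on the cytosolic face of the ER membrane, where Dpagt1 and the Alg13-Alg14 pair place N-acetylglucosamines and Alg1, Alg2 and Alg11 add mannoses. The lipid is then turned to the lumen, where Alg3, Alg9 and Alg12 add further mannoses and Alg6, Alg8 and Alg10 add glucoses from dolichol-linked donors. The pancreas is a tissue of heavy protein secretion, and many of the proteins that pass its ER are glycosylated.

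Sel1l itself had 11.68, 11.66, 11.70 and 11.45 in the knockout arrays, against 12.37, 12.38, 12.38 and 12.39 in the wild type arrays (log2 values of robust multi-array average, RMA). The 2 groups did not overlap, with a difference of -0.76 (SE 0.0788, limma adjusted p = 0.000196; exact permutation test, two-sided p = 0.0286, the lowest this design allows). The feature is not limited to exon 6, so what signal is left does not measure how many cells kept the gene. Acinar markers were bright on every array, and all 8 measured of 11 listed lay above the median level of all genes. Their summed level (log2) was 16.31 to 16.38 in knockout and 16.57 to 16.65 in wild type arrays. At a limma adjusted p under 0.05, 5 of the 8 were lower in the knockout arrays, where 12.6% of all genes were lower. Endothelial markers were higher for 3 of 5 at the same threshold, where 16.1% of all genes were higher. Their sums were 10.05 to 10.37 in knockout and 9.73 to 10.01 in wild type arrays. Macrophage markers were called by limma for 0 of 7 (0 also at an unadjusted p under 0.05), with sums of 10.81 to 12.22 in knockout and 9.46 to 12.63 in wild type arrays, the lowest being wild type replicate 2. Every measured lymphocyte marker (6) and adipocyte marker (4) lay below the median level. Islet markers were higher for 1 of 6, liver markers lower for 1 of 4 and lymphocyte markers lower for 1 of 6. Duct markers (5 measured) and stellate and fibroblast markers (7 measured) had 0 called. The part of these cell types in the results below was not tested, and in bulk tissue more cells of a type and more RNA per cell cannot be told apart.

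Of the 9 measured ALG genes, 8 were higher in the knockout arrays and 0 lower at a limma adjusted p under 0.05 over all genes, where 16.1% of all genes were higher and 12.6% lower. Alg3 was the 1 gene not called. None of the 9 was lower at an unadjusted limma p under 0.05 either, which also holds for each list below with 0 genes lower. All 9 lay above the median level of all genes, and among the 9410 genes above that level 27.9% were higher. The median difference (log2, knockout minus wild type) was 0.48 over the 9 genes, -0.04 over all genes and 0.13 over the genes above the median level. Knockout and wild type arrays did not overlap for 7 of the 9, where 17.6% of all genes were higher without overlap. Among the 9410 genes above the median level, 2910 were higher without overlap. After cyclic loess or quantile normalization 5 of the 9 were called higher, where 1987 and 1815 of all 18820 genes were higher. After centring each array on its median 6 of the 9 were called higher, where 2257 of all genes were.

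**Figure D1:**
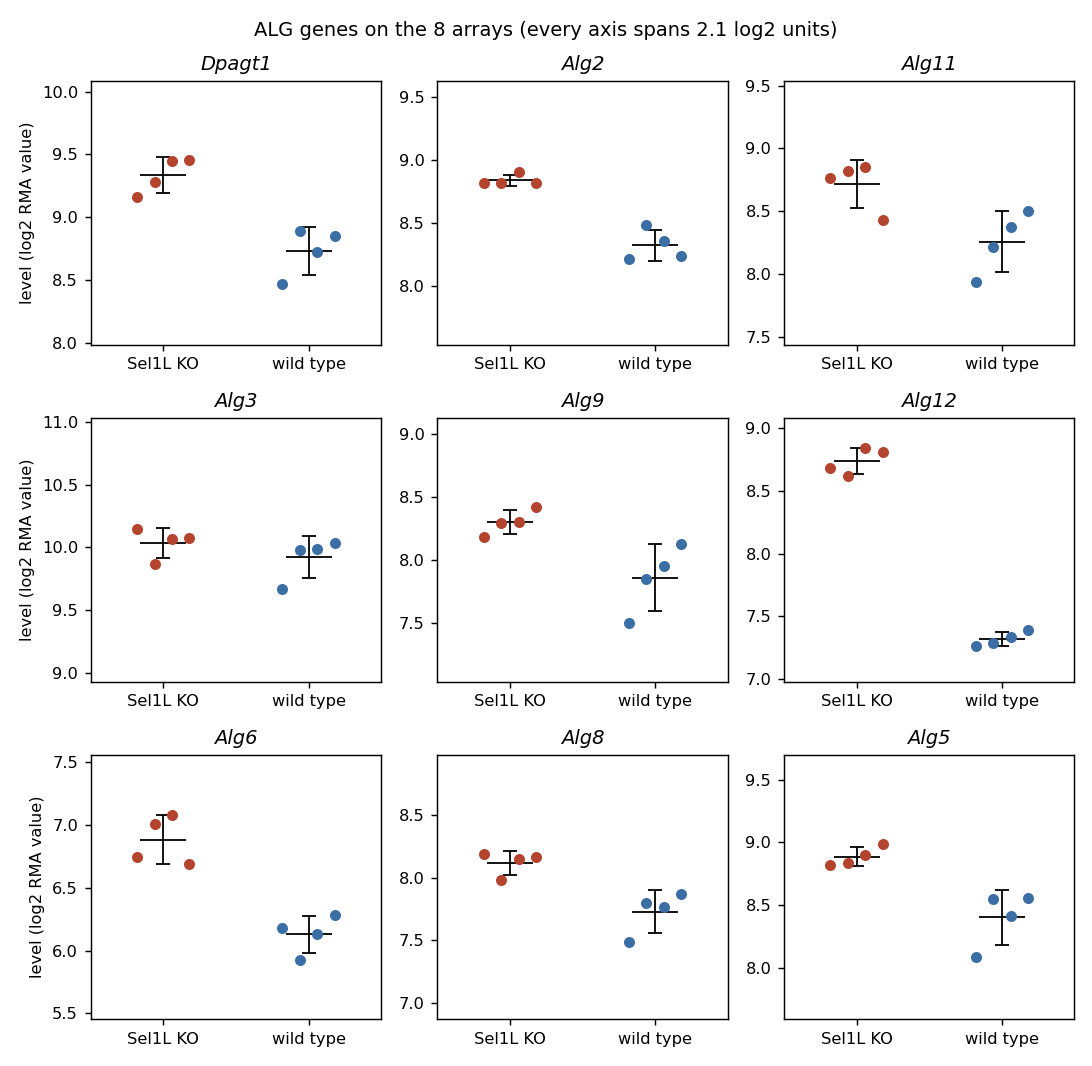
Level of each measured ALG gene (log2 RMA value) in the 4 Sel1L knockout arrays (red, left) and the 4 wild type arrays (blue, right), with the mean and SD in black; replicates 1 to 4 run left to right within a group. Alg12 has the widest space between its groups, with 8.62 on the lowest knockout array against 7.39 on the highest wild type array, while Alg3 and Alg11 overlap.

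Alg12, the mannosyltransferase that acts between the additions made by Alg9, showed the largest difference of the 9. Its level was 8.68, 8.62, 8.84 and 8.81 in the knockout arrays and 7.26, 7.29, 7.34 and 7.39 in the wild type arrays. Every knockout array lay above every wild type array, with 1.22 between the nearest of them, and neither group spread widely (SD 0.105 in knockout and 0.0582 in wild type, n = 4 each). The difference was 1.42 (SE 0.0801, 2.67-fold, limma adjusted p = 8.22e-06). Its 95% interval ran from 1.24 to 1.60, above the upper end of the interval of every other measured ALG gene, of which the highest was 1.01 for Alg6; differences between ALG genes were not tested. The difference lay between 1.28 and 1.46 under all 17 other settings tried.

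The promoter of Alg12 is shown because it holds a full ER stress response element (ERSE), CCAAT and CCACG with 9 bases between them, through which ATF6 and XBP1 are known to act together with NF-Y. Beside it stand those of Alg6, with the next largest difference, and Alg3, the gene not called. Each is the 250 bases before the start of the gene in RefSeq (GRCm38.p6), 5′ to 3′ on the strand of the gene, and capitals mark the CCAAT and CCACG letters of an ERSE and any CCACG, or CGTGG where it lies on the other strand.
Alg12, chr15:88819319-88819568, minus strand: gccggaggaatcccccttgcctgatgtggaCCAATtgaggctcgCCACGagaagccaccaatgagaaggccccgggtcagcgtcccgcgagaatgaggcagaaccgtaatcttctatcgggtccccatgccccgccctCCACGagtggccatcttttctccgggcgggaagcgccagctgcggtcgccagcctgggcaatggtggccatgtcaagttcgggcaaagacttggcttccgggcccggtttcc
Alg6, chr4:99715380-99715629, plus strand: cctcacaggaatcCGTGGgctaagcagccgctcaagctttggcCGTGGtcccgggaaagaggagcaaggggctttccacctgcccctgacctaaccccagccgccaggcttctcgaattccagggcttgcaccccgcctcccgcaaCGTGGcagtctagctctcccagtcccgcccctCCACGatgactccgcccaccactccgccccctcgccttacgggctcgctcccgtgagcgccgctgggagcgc
Alg3, chr16:20610762-20611011, minus strand: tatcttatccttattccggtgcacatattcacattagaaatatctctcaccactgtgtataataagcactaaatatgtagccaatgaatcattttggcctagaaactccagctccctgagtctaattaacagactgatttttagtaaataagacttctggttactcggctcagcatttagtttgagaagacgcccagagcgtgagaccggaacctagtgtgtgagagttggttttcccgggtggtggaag

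The table held promoters of 7 of the 10 listed genes (Alg1, Alg3, Alg5, Alg6, Alg8, Alg9 and Alg12), and each was searched on both strands over 300 bases, 250 before and 50 after the start. The ERSE was in Alg12 alone of the 7, at -220 to -202 from the start, and in 39 of 32851 promoters of that length in the table (0.119%). Its CCACG letters occur by themselves in 32.8% of promoters, and were in those of Alg5, Alg6, Alg12 and Alg1. Alg6 held 4 such runs, at -237, -207, -104 and -72, and Alg12 another at -112. TGACGTGG, known as a site of XBP1 and ATF6, and TGATGNAAT, of the kind that ATF4 binds with C/EBP proteins, were in none of the 7, and in 0.676% and 0.965% of promoters. The promoters of Alg8 and Alg9, both called higher, held none of these motifs, as did that of Alg3. Such matches describe letters in a window, not a bound site. The motifs were chosen with earlier results of these data known, and a link between motifs and differences was not tested.

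On the cytosolic side, Dpagt1, which places the first sugar on dolichol phosphate and is the target of tunicamycin, was higher in the knockout arrays. It had 9.16, 9.28, 9.45 and 9.46 in knockout against 8.47, 8.89, 8.72 and 8.85 in wild type arrays. The groups did not overlap, and wild type replicate 1 was the lowest array. The difference was 0.60 (SE 0.114, 1.52-fold, limma adjusted p = 0.00456). Alg2, a mannosyltransferase, had 8.82, 8.82, 8.91 and 8.82 in knockout against 8.21, 8.48, 8.35 and 8.24 in wild type arrays. The knockout arrays were close together and all above the wild type arrays, with a difference of 0.52 (SE 0.0825, 1.43-fold, adjusted p = 0.00187).

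Alg11 places the last cytosolic mannoses. It had 8.76, 8.82, 8.86 and 8.43 in knockout against 7.94, 8.22, 8.37 and 8.50 in wild type arrays. Knockout replicate 4 lay below wild type replicate 4, so the groups overlapped. The difference of 0.46 (SE 0.138, limma adjusted p = 0.034) passed the threshold on all 8 arrays. It missed it without knockout replicate 1 (adjusted p = 0.0725), 2 (0.0852) or 3 (0.0919) or wild type replicate 1 (0.0707) or 2 (0.0614), with the replicate number as a block (0.0633), and after quantile normalization (0.0727), centring (0.0584) or cyclic loess (0.0982). The differences in these fits were 0.33 to 0.46.

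In the lumen, Alg3 starts the mannose additions. It had 10.14, 9.87, 10.07 and 10.08 in knockout against 9.67, 9.98, 9.99 and 10.04 in wild type arrays. The groups overlapped, with knockout replicate 2 below 3 of the wild type arrays. The difference of 0.12 did not pass the test (SE 0.104, limma adjusted p = 0.406). Its 95% interval, -0.11 to 0.35, leaves out the differences of Alg12, Dpagt1, Alg2, Alg9, Alg11, Alg6, Alg8 and Alg5. Those differences carry error too, and the interval overlaps those of Dpagt1, Alg2, Alg9, Alg11, Alg8 and Alg5. Whether Alg3 differs from the other ALG genes was not tested.

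Alg9 adds mannoses before and after Alg12. It had 8.18, 8.29, 8.31 and 8.42 in knockout against 7.50, 7.85, 7.95 and 8.13 in wild type arrays. The groups did not overlap, but the lowest knockout array stood only 0.05 above the highest wild type array. The difference was 0.44 (SE 0.129, 1.36-fold, limma adjusted p = 0.0298). It missed the threshold without knockout replicate 2 (adjusted p = 0.064), 3 (0.069) or 4 (0.0792) or wild type replicate 2 (0.0518), with differences of 0.40 to 0.45, and after quantile normalization (0.0754), centring (0.0661) or cyclic loess (0.0938), with 0.31 to 0.37.

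Alg6, Alg8 and Alg5 serve the glucoses. Alg6, which adds the first of them, had 6.75, 7.01, 7.08 and 6.69 in knockout against 6.18, 5.93, 6.13 and 6.28 in wild type arrays. All knockout arrays were above all wild type arrays, and the difference was 0.75 (SE 0.116, 1.69-fold, limma adjusted p = 0.00159). Alg8, which acts next, had 8.19, 7.98, 8.14 and 8.16 in knockout against 7.49, 7.80, 7.77 and 7.87 in wild type arrays, again without overlap. Its difference was the smallest among the called members, at 0.39 (SE 0.0998, 1.31-fold, adjusted p = 0.0177). It missed the threshold after quantile normalization (0.0816) and after cyclic loess (0.085), with 0.25 in each.

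Alg5 makes the dolichol-linked glucose that Alg6 and Alg8 use. It had 8.82, 8.84, 8.90 and 8.99 in knockout against 8.08, 8.55, 8.42 and 8.56 in wild type arrays. The groups did not overlap, and the difference was 0.48 (SE 0.113, 1.40-fold, limma adjusted p = 0.0117).

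Within the wild type group the arrays stood in a like order for most ALG genes. Wild type replicate 1 was the lowest wild type array for 8 of the 9, the exception being Alg6, and wild type replicate 4 the highest for 7. Over all genes above the median level, wild type replicate 1 was the lowest wild type array for 33.7%. Averaged over the 9 genes, the arrays stood 0.54, 0.54, 0.65 and 0.58 above the wild type mean in knockout and at -0.21, 0.04, 0.04 and 0.13 in wild type. Wild type replicate 1 thus lay apart from the other wild type arrays, and the knockout arrays stood close to each other. Without wild type replicate 1 the median difference of the 9 genes was 0.38 and 7 were called higher, where 2648 of all 18820 genes were higher.

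**Figure D2:**
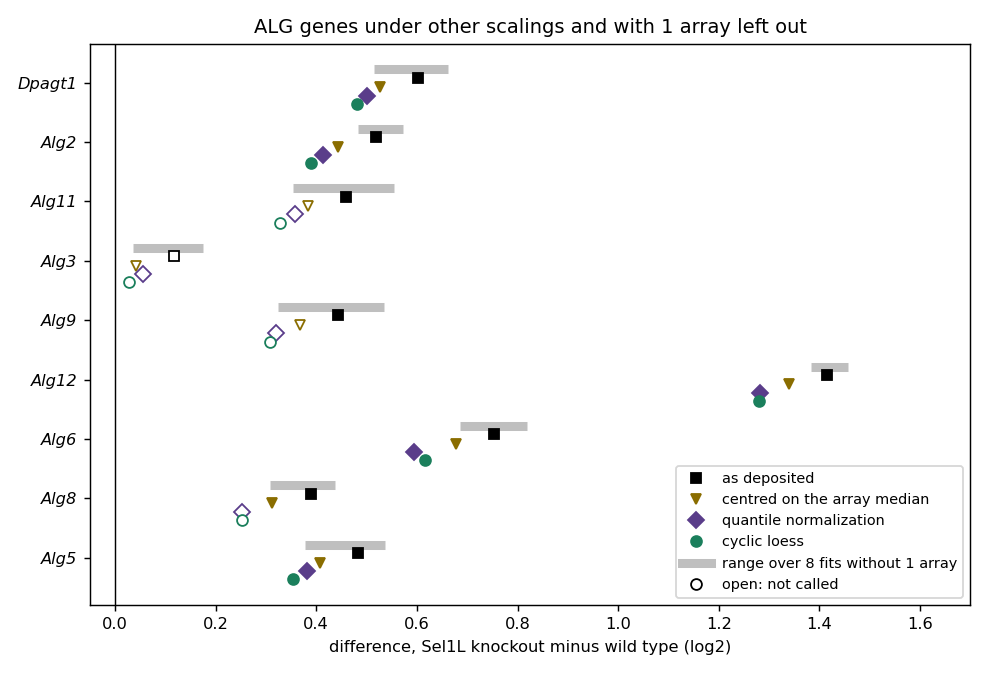
Difference of each ALG gene (log2, Sel1L knockout minus wild type) on the deposited values and after 3 other scalings (markers, open where the adjusted p was not under 0.05), with the range over the 8 fits that leave out 1 array as a grey bar. All differences stay above 0. Those of Alg11, Alg9 and Alg8 have open markers under 2 or 3 scalings, and the markers of Alg3 are open throughout.

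The other genes of the pathway were described from 3 lists, with 23 genes measured of 25. Of these 13 were higher and 1 lower, with a median difference of 0.32. Over all genes 16.1% were higher and 12.6% lower. Of the 23, 22 lay above the median level, where 27.9% of genes were higher and 10.8% lower. Among the assembly genes outside the ALG list, 3 of 7 were higher and 0 lower. Alg14, the membrane anchor of the enzyme that adds the other N-acetylglucosamine, rose by 0.61 (SE 0.0992, limma adjusted p = 0.00218), while its catalytic partner Alg13 differed by 0.27 (SE 0.101, adjusted p = 0.0695) at a low level. Alg10b, which adds the last glucose, differed by 0.22 (SE 0.1, adjusted p = 0.123).

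Dolichol phosphate mannose, the donor for the lumenal mannoses, is made by Dpm1 with its partners Dpm2 and Dpm3. Dpm2, a regulatory subunit that is also known from the synthesis of GPI anchors, had 9.23, 9.32, 9.46 and 9.42 in knockout against 8.41, 8.37, 8.17 and 8.35 in wild type arrays. The groups lay far apart, and the difference was 1.03 (SE 0.0877, 2.04-fold, limma adjusted p = 7.53e-05). The catalytic subunit Dpm1 differed by 0.24 (SE 0.0897, adjusted p = 0.0734) and the membrane anchor Dpm3 by 0.06 (SE 0.0904, adjusted p = 0.656), so neither passed. Dpm1 was called higher when only genes above the median level were fitted (limma adjusted p = 0.0449). The difference of Dpm3 turned negative after quantile normalization, centring and cyclic loess (-0.11, -0.02 and -0.09). Mpdu1, needed for the use of dolichol-linked mannose and glucose, rose by 0.32 (SE 0.0764, adjusted p = 0.0128), a call lost after quantile normalization (0.064) and cyclic loess (0.0848).

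**Figure D3:**
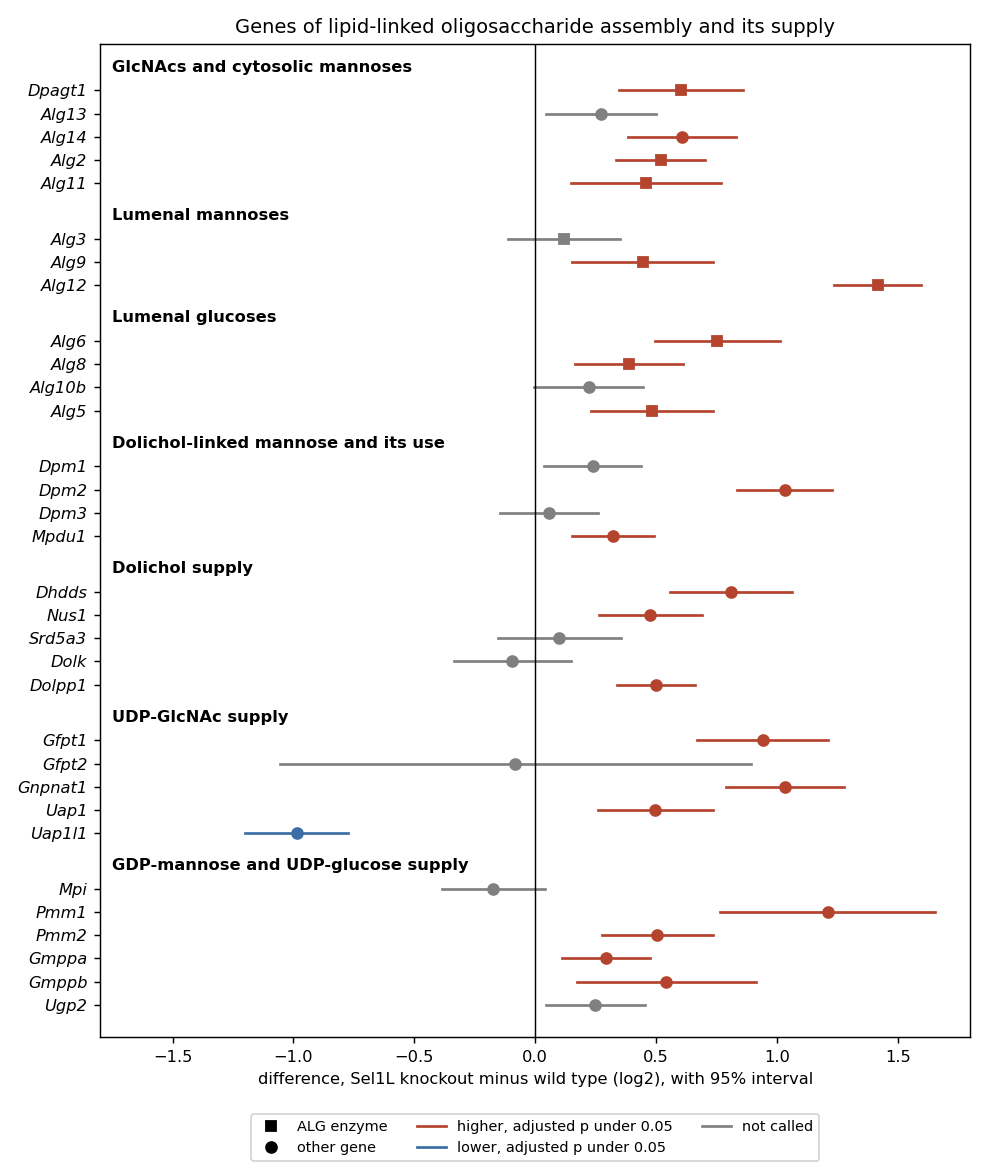
Difference (log2, Sel1L knockout minus wild type) with its 95% interval for the ALG genes (squares) and the other measured genes of assembly and supply (circles), grouped by step with assembly before supply. Colour gives the call after adjustment over all genes, so an unadjusted interval can clear 0 without a call, as for Alg13; 1 gene, Uap1l1, was lower.

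Dolichol is made from a polyprenol and recycled after each transfer. Of 5 genes, 3 were higher and 0 lower, beside 16.1% and 12.6% of all genes. Dhdds and Nus1, the subunits of the enzyme that makes the polyprenol chain, rose by 0.81 (SE 0.112, limma adjusted p = 0.000916) and 0.48 (SE 0.0948, adjusted p = 0.00585). Dolpp1, which recycles dolichyl pyrophosphate, rose by 0.50 (SE 0.0717, adjusted p = 0.00113). Dolk, the dolichol kinase, and Srd5a3, which takes part in reducing the polyprenol, did not pass (-0.09 and 0.10, adjusted p = 0.522 and 0.52), and the sign of Srd5a3 turned after quantile normalization, cyclic loess and with the mean of its features (-0.05, -0.04 and -0.05).

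Of 11 measured genes that supply the nucleotide sugars, 7 were higher (63.6%) and 1 lower (9.09%), beside 16.1% and 12.6% of all genes. Gfpt1, the rate-limiting enzyme of UDP-GlcNAc synthesis, had 10.14, 9.92, 10.28 and 9.95 in knockout against 8.88, 9.10, 9.36 and 9.18 in wild type arrays. All knockout arrays stood above the wild type arrays, with a difference of 0.94 (SE 0.121, limma adjusted p = 0.000629). Gnpnat1, the acetyltransferase of the same route, rose by 1.03 (SE 0.11, 2.05-fold, adjusted p = 0.00022), and Uap1, which makes UDP-GlcNAc itself, by 0.50 (SE 0.106, adjusted p = 0.00787). Uap1l1, a homologue of Uap1, went the other way, with 6.40, 6.22, 6.05 and 6.14 in knockout against 7.19, 7.32, 7.17 and 7.09 in wild type arrays. It was lower on every knockout array, by -0.99 (SE 0.0945, adjusted p = 0.000133). Gfpt2, the other form of the first enzyme, was spread widely in both groups and not called (-0.08, SE 0.435, adjusted p = 0.898); its sign turned without knockout replicate 3, wild type replicate 3 or wild type replicate 4 (0.06, 0.20 and 0.03).

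For GDP-mannose, the phosphomannomutase genes Pmm1 and Pmm2 rose by 1.21 (SE 0.198, limma adjusted p = 0.00218) and 0.51 (SE 0.102, adjusted p = 0.00631). Pmm1 had 6.42, 5.96, 6.21 and 7.06 in knockout against 5.25, 5.23, 5.11 and 5.23 in wild type arrays, so the knockout arrays were higher but uneven. Mpi, which feeds this route from glycolysis, was not called (-0.17, adjusted p = 0.189), though it was lower after quantile normalization (-0.31, adjusted p = 0.0376) and cyclic loess (-0.31, adjusted p = 0.035). The subunits of the enzyme that makes GDP-mannose, Gmppa and Gmppb, rose by 0.29 (SE 0.0808, adjusted p = 0.0238) and 0.54 (SE 0.165, adjusted p = 0.0352). Gmppa missed the threshold without wild type replicate 1 (adjusted p = 0.0507) or 2 (0.0508) or knockout replicate 3 (0.0732) or 4 (0.0521), and after centring (0.0769) or cyclic loess (0.0901). Gmppb missed it without wild type replicate 1 (0.0566) or 4 (0.0516) or knockout replicate 2 (0.0781), 3 (0.0962) or 4 (0.0817), and after quantile normalization (0.111), centring (0.062) or cyclic loess (0.095). Ugp2, the source of UDP-glucose, differed by 0.25 (adjusted p = 0.0671), and was called higher when only genes above the median level were fitted (adjusted p = 0.0409).

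Lists downstream of assembly were read beside the same shares, 16.1% higher and 12.6% lower over all genes and 27.9% higher among genes above the median level. Of 12 oligosaccharyltransferase genes, whose complex transfers the finished oligosaccharide, 6 were higher and 0 lower, with a median of 0.41. The catalytic subunit gene Stt3a had 11.18, 11.10, 11.27 and 11.10 in knockout against 10.19, 10.41, 10.53 and 10.45 in wild type arrays, with no overlap. Of 8 ER trimming and lectin genes 5 were higher (62.5%) and 0 lower, with a median of 0.44; Prkcsh, the glucosidase II beta subunit, rose by 0.74 (SE 0.0878, limma adjusted p = 0.000395) and the lectin gene Calr by 0.95 (SE 0.12, adjusted p = 0.000578).

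Other pathways that draw on the same donors were set beside these. Of 18 measured genes of GPI anchor assembly, which also uses dolichol phosphate mannose, 9 were higher and 0 lower, with a median of 0.31. Piga, the catalytic subunit of its first enzyme, rose by 1.24 (SE 0.162, limma adjusted p = 0.000665) and the mannosyltransferase gene Pigv by 0.84 (SE 0.121, adjusted p = 0.00117). Of 8 genes of protein mannosylation from the same donor, 3 were higher (37.5%) and 1 lower (12.5%), with a median of 0.07; the O-mannosyltransferase gene Pomt2 rose by 0.46 (SE 0.0802, adjusted p = 0.00301) and Tmtc2 was lower by -0.51 (SE 0.0801, adjusted p = 0.00178). Of 14 Golgi genes that process the N-glycan after it leaves the ER, 1 was higher (7.14%) and 2 were lower (14.3%), with a median of -0.10, so the share lower was near that of all genes. After quantile normalization, centring or cyclic loess 0 were higher and 4 lower. Over all 18820 genes, 1815 were higher and 2414 lower after quantile normalization, 2257 and 3969 after centring, and 1987 and 2148 after cyclic loess. The mannosidase genes Man1a and Man2a1 were lower by -0.48 (SE 0.105, adjusted p = 0.00916) and -0.33 (SE 0.0875, adjusted p = 0.0201), the call of Man2a1 being lost without knockout replicate 1 (adjusted p = 0.0528) or 4 (0.0576). Man2a2, a related mannosidase, was higher by 0.27 (SE 0.0786, adjusted p = 0.0286), and this call was lost without knockout replicate 1 (0.0691), 3 (0.0672) or 4 (0.0718), wild type replicate 2 (0.0658) or 4 (0.0607), with the replicate block (0.0558), and after quantile normalization (0.387), centring (0.0835) and cyclic loess (0.301). B4galt1, a galactosyltransferase, had the widest difference of the Golgi list. It had 7.96, 7.95, 7.32 and 7.54 in knockout against 8.42, 7.83, 9.30 and 8.47 in wild type arrays. Wild type replicate 2 lay below 2 of the knockout arrays, and the difference of -0.81 was not called (SE 0.277, adjusted p = 0.0522). It was called lower under 6 of the 17 other settings, among them quantile normalization (-0.95, adjusted p = 0.0342), centring (-0.89, 0.0327), cyclic loess (-0.95, 0.0343) and without wild type replicate 2 (-1.04, 0.013). Differences between lists were not tested.

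**Figure D4:**
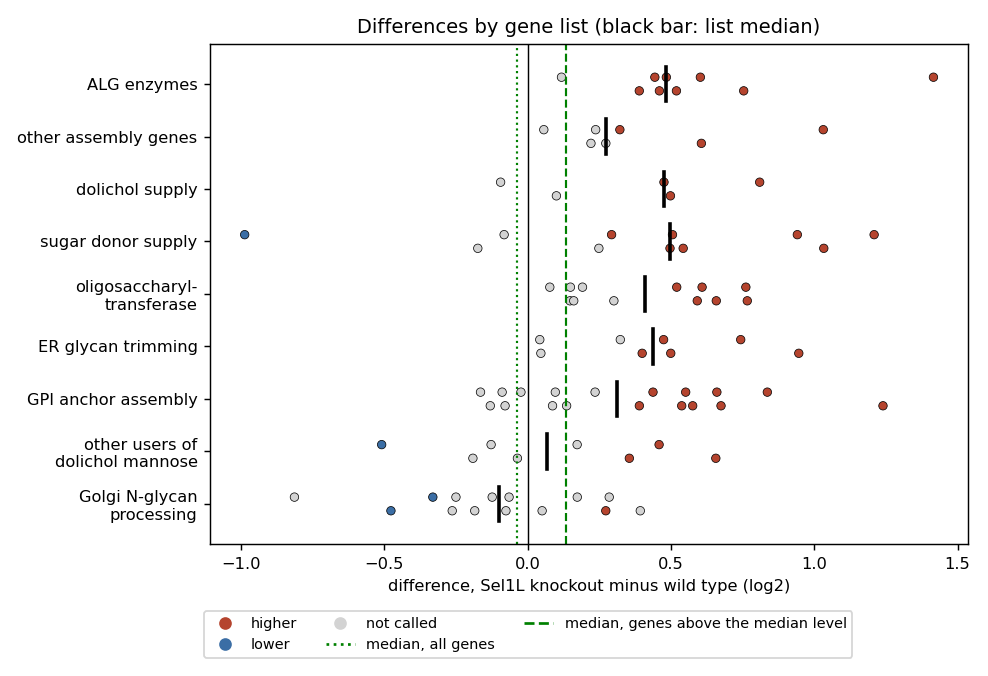
Difference of each measured gene (log2, Sel1L knockout minus wild type) by list, coloured by its call, with the list median as a black bar. The ALG median of 0.48 and the Golgi median of -0.10 stand beside the medians of all genes (dotted, -0.04) and of genes above the median level (dashed, 0.13).

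The genes outside the list whose 8 values lay nearest to the mean ALG profile were Fbxo8, Zfp719, Zfand6, Drg2 and Klhdc2. The measure was the root mean square difference over the 8 arrays after removing each gene's own mean, and it was 0.0379 to 0.0478 for these genes. The same measure was 0.085 for Dpagt1 and 0.426 for Alg12, whose difference is larger than the mean profile.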

How the data were processed

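The deposited table holds log2 expression values that the authors made with RMA, per the submitters' processing notes. The RMA version and chip definition were not given in the sources used here, nor which arrays were normalized as a set. No header names the log base, which is taken as log2 from RMA and the range of 0.964 to 14.4. Array medians lay between 4.94 and 5.05, and precision is limited by the number of arrays. The medians were on average higher in the knockout arrays. Centring each array on its median moved the median difference over all genes from -0.04 to -0.11. Over the 9 ALG genes it moved from 0.48 to 0.41. Of 35556 features, 21218 had 1 gene symbol in GEO's platform annotation, 1881 several and 12457 none listed; symbols were checked by Entrez identifier against RefSeq (GRCm38.p6; 21185 matched, 0 changed). A gene with several features was read from its brightest one on average, which left 18820 genes.

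Genotype was fitted with limma 3.58.1 (lmFit, eBayes, 6 residual degrees of freedom) in R 4.3.3 on all genes, with Benjamini-Hochberg adjustment over all of them and a threshold of 0.05. Differences are knockout minus wild type, and errors are moderated standard errors. The 17 other settings were quantile normalization, centring on the array median, cyclic loess, only genes above the median level, the mean of a gene's features, every feature by itself, trend and robust variance, array weights, the replicate number as a block, and each array left out in turn. Marker sums are log2 of summed unlogged values. The fit was tested on simulated data for 4 against 4 arrays and 18820 genes, where it recovered 41 of 100 genes changed by 0.5 and 92 of 100 changed by 1, with 11 false calls among 144. No other genes were changed in the simulation, while 5406 were called in the data. The adjustment therefore differs, and the recovered shares do not give the power of the real comparison.

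Named genes are the 10 members, Sel1l, genes of the 3 supply and assembly lists, up to 4 genes of each other list by smallest p, and the 5 nearest profiles. The members, lists and promoter motifs were chosen with earlier results of these data known. Promoters came from RefSeq (GRCm38.p6). Figures were drawn with matplotlib 3.10.9.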

Additional observations from a re-analysis of the deposited data

Results flagged for a closer look

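In 8 cases of 116 (58 measured named genes in 2 groups of 4 arrays), 1 array stood so far from the other 3 that its gap, as a share of the group's range, passed Dixon's critical value at 95%; chance gives about 1 in 20. Sel1l was lowest on knockout replicate 4 (11.45 against 11.66 to 11.70, share 0.862). Alg2 was highest on knockout replicate 3 (8.91 against 8.82 on the other arrays, share 0.968), a group that hardly varied. Alg3 was lowest on wild type replicate 1 (9.67 against 9.98 to 10.04, share 0.843), and without that array its difference was 0.04 rather than 0.12. Gnpnat1 was also lowest on wild type replicate 1 (7.70 against 8.03 to 8.09, share 0.845). Dpm1 was lowest on knockout replicate 1 (6.92 against at least 6.99 on the others, share 0.889). Mpi and Pomt1 were highest on knockout replicate 4 (8.10 against 7.86 to 7.89, share 0.873, and 7.49 against 7.27 to 7.29, share 0.911). Pmm1 was lowest on wild type replicate 3 (5.11 against 5.23 to 5.25, share 0.835).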

How the results depend on the processing

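Among the ALG genes, 5 of 9 were called higher after quantile normalization and 5 after cyclic loess, against 8 on the deposited values. With 1 array left out the count was 6 to 8, where 11.7% to 15.2% of all genes were higher. Under any of the 17 settings 0 were called lower. Over all genes 3027 were higher and 2379 lower on the deposited values, 1815 and 2414 after quantile normalization, 2257 and 3969 after centring, and 1987 and 2148 after cyclic loess, so higher genes made up 56.0%, 42.9%, 36.3% and 48.1% of the calls. Dpagt1, Alg2, Alg12, Alg6 and Alg5 kept their call under all 17 settings; Alg11 lost it in 9, Alg9 in 7 and Alg8 in 2, and Alg3 was called in 0. For Gfpt2 the sign turned in 3 of the fits that leave out 1 array, which gave -0.55 to 0.20. Supply and assembly genes called higher numbered 10 to 13 of 23, where 9.64% to 17.2% of all genes were higher. When only genes above the median level were fitted, which leaves out Alg13, they numbered 15 of 22. In that fit 3013 of 9410 genes were higher (32.0%). The sign also turned for Dpm3 (-0.11 after quantile normalization, -0.020 after centring, -0.087 after cyclic loess) and Srd5a3 (-0.046 after quantile normalization, -0.039 after cyclic loess, -0.055 with the mean of its features), neither of them called; the cause was not tested. Same-numbered arrays did not deviate together throughout (correlations of 0.22, 0.15, -0.27 and -0.02 across genes for replicates 1 to 4), so the numbers are not taken as pairs. With the replicate number as a block 4678 genes were called against 5406, and 7 ALG genes, Alg11 being lost. Whether signals follow RNA amount evenly over the range was not tested.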
